A study of Mus musculus with 12 samples.

Results

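The genes described here are the cytochrome P450 genes of families 1 to 4 in the mouse kidney. They were taken from the deposited count table by name: Cyp, a digit from 1 to 4 and a lower-case letter. Of 97 names that matched, 15 pseudogene names were dropped, which left 82 of the 46882 names in the table, in 22 subfamilies. One of the 82, Cyp4x1os, is by its name the antisense transcript of Cyp4x1 and had no read. The study sequenced whole-kidney RNA of C57BL/6 mice, all 6 to 8 weeks old. It set 6 wild-type animals (WT) against 6 A1cf -/- animals (KO), described in the series as biological replicates. A1cf encodes an RNA-binding protein known as the complementation factor of the APOBEC1 messenger RNA editing enzyme. No treatment is named, and the sex of the animals is not among the labels used here. The deleted part of A1cf is not given in the sources used here. Each animal is named below by its label number, and n is 6 per genotype except in fits that are said to leave animals out. The numbers fall into 2 runs, 573 to 602 (3 WT and 5 KO) and 776 to 780 (3 WT and 1 KO), and the labels do not say what they stand for.

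Cytochromes P450 are haem enzymes, mostly of the endoplasmic reticulum, that insert oxygen into lipids, steroids and foreign compounds with electrons from P450 oxidoreductase. In the kidney, Cyp4a and Cyp4f enzymes hydroxylate the end of the fatty acid chain and turn arachidonate into a vasoconstrictor, while Cyp2c and Cyp2j enzymes make arachidonate epoxides that act on vessels and sodium transport. Several Cyp2 and Cyp4 genes of the mouse proximal tubule respond to androgen or to fasting through the nuclear receptor PPARA, and Cyp1, Cyp2b and Cyp3a genes are the classical targets of xenobiotic receptors.

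The promoter sequences of 3 genes are shown because the results below turn on genes of these kinds. Cyp2d26 had the smallest p between genotypes of any member, Cyp2d9 is an abundant gene of the same cluster with a fold change near 0, and Cyp2c65 is a gene at the edge of detection whose reads came mainly from 1 library. Each sequence is the 250 bases before the RefSeq start on the gene's own strand (GRCm38.p6): chr15:82794246-82794495 on the minus strand for Cyp2d26, chr15:82452127-82452376 on the plus strand for Cyp2d9 and chr19:39060756-39061005 on the plus strand for Cyp2c65. No exon counted by the authors lies in them. Capitals mark matches, on either strand, to 3 motifs that were searched: CAAAGTCCA (HNF4), GCGTG (the core of the xenobiotic response element) and TATAAA (the TATA box). No match that is printed overlaps another.
Cyp2d26: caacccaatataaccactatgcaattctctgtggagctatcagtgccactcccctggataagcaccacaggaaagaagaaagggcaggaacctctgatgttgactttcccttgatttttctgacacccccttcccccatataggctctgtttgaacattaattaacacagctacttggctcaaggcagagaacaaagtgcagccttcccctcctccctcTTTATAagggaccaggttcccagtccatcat
Cyp2d9: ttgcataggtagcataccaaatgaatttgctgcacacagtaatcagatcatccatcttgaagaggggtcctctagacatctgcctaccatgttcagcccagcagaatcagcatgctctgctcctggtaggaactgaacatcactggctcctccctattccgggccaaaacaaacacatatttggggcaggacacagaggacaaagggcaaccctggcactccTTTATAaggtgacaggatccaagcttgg
Cyp2c65: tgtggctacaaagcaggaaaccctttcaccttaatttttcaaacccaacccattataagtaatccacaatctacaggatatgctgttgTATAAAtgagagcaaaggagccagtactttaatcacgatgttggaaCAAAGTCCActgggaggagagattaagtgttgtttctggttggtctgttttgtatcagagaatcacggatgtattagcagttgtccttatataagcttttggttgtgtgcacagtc
Cyp2d26 and Cyp2d9 both held a TATA match on the opposite strand, starting 31 and 28 bases before the start. Cyp2c65 held the HNF4 motif 116 bases before its start. RefSeq gave a promoter for 67 of the 82 members (31 of those tested), and the first entry was used for the 5 members with several. The HNF4 motif was present in 10 of the 67 (14.9%), against 0.384% of all 32851 promoters. Its 10 holders (Cyp2c40, Cyp2c65, Cyp2c67, Cyp2c68, Cyp2c69, Cyp2c70, Cyp3a11, Cyp3a16, Cyp3a41a and Cyp3a41b) lay between 0 and 0.332 CPM per kilobase, in kidneys where Hnf4a itself stood at 859 ± 116 CPM in WT (SD, n = 6). The TATA box was found in 26 of the 67 (38.8%, against 12.4% of all promoters) and GCGTG in 13 (19.4%, against 28.2%). The 32851 promoters include several entries for some genes, while 1 entry per member was used. All 10 holders of the HNF4 motif lie in the Cyp2c cluster on chromosome 19 or the Cyp3a cluster on chromosome 5. The genes of a cluster are related, so these are not separate occurrences. The motif matches are a description of letters in a window. Only exact matches were sought, and the part of Hnf4a in the levels of these genes was not tested.

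Counts per library totalled 26671705 (WT 776) to 52899139 (KO 574) reads assigned to genes, and the 82 members held 1.37% (WT 777) to 1.75% (KO 584) of them. CPM is the usual scaling of a count to library size, here after TMM scaling, and gene positions are those of the table (mm10). The targeted gene followed the labels in all 12 libraries: A1cf was at 45.2 to 65.7 CPM in WT and 2.95 to 6.11 CPM in KO, a log2 fold change of -3.72 ± 0.15 (SE; edgeR adjusted p = 6.02e-09). Proximal tubule markers, which define the segment that holds most renal P450, summed to 9182 to 13540 CPM in WT and 10148 to 13819 CPM in KO, with 1 of 9 higher and 1 lower at an unadjusted p under 0.05. The 2 markers each of the loop of Henle, the distal convoluted tubule and intercalated cells were lower in KO at an unadjusted p under 0.05, where 5.28% of all genes were. Higher at that level (5.07% of all genes were) were Acta2 and Rgs5 of 3 smooth muscle and pericyte markers (log2 fold change 0.30 each). So were Col1a1 of 2 fibroblast markers (0.51) and Adgre1 of 2 macrophage markers (0.40). The part of these shifts in the P450 values was not tested, and in bulk kidney the number of cells of a type and the RNA per cell cannot be told apart. The 6 liver markers summed to 36.1 to 140.1 CPM in WT and 32.9 to 125 CPM in KO, mostly from Serpina1a and Ttr, and Cyp7a1 was at 0 in all libraries. The 5 adrenal markers summed to 3.18 to 5.15 CPM in WT and 3.18 to 4.10 CPM in KO, nearly all from Star, and Cyp11b2 was at 0. The part of these transcripts in the P450 values was not tested.

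Renal P450 RNA was concentrated in a few genes. Per kilobase of counted exon, 10 members stood at or above 100 CPM, 19 lay from 1 to 100 CPM, 41 lay above 0 and under 1 CPM, and 12 had no read. The 7 most abundant members held 85.6% of the summed CPM per kilobase of all 82, and the 12 most abundant held 96.3%. In order these 12 were Cyp4b1 (1428 CPM per kilobase over all libraries), Cyp4a10 (1168), Cyp2e1 (1134), Cyp2j5 (665), Cyp4a14 (652), Cyp2a4 (521), Cyp4a31 (452), Cyp2d9 (285), Cyp2a5 (190), Cyp2d12 (105), Cyp4a12a (95.2) and Cyp2j11 (84.3). The ranges of Cyp4b1, Cyp4a10 and Cyp2e1 overlapped between libraries, so that the order of these 3 is not separated by their spread. By subfamily, Cyp4a led with 34.1% of the summed level, followed by Cyp4b (20.3%), Cyp2e (16.1%), Cyp2j (12.04%), Cyp2a (10.1%) and Cyp2d (6.55%). Cyp4f had 0.337%, Cyp2c 0.207%, and no other subfamily reached 0.1%.

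**Figure D1:**
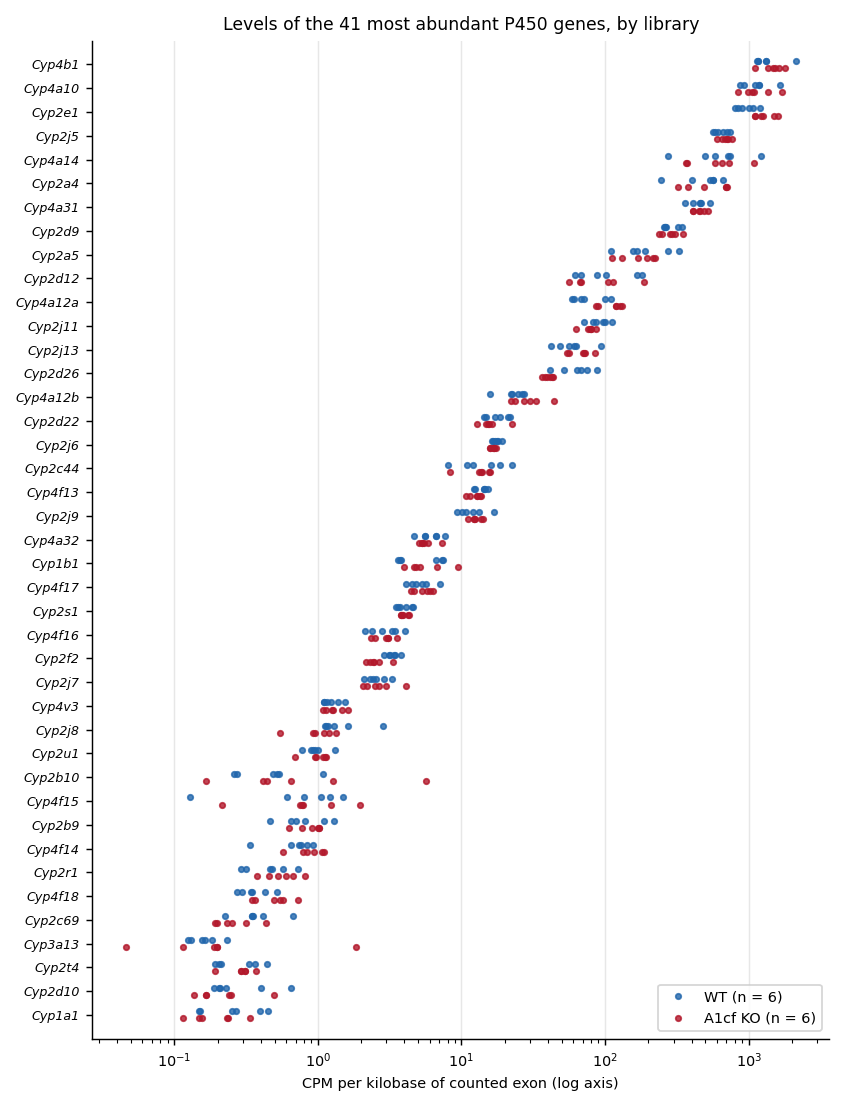
Each row is a gene and each point a library (blue WT, red KO), on a log axis of CPM per kilobase of counted exon, for the 41 members with a mean of at least 0.2. The points run from Cyp4b1 at the top to Cyp1a1 at 0.241, and blue and red overlap in every row.

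The members at 0 were Cyp2a22, Cyp2c37, Cyp2c39, Cyp2c54, Cyp2c67, Cyp2c70, Cyp2w1, Cyp3a16, Cyp3a41a, Cyp3a41b, Cyp3a44 and Cyp4x1os. If counts were independent, no read in any library would allow a level of up to 0.00573 CPM over all libraries together, from 3 counts. Mates of a read pair appear to have been counted singly, as given below, so this limit would be too low. A further 10 had fewer than 10 reads in all, which brought those under 10 reads to 22. Many of these are genes of the liver, where Cyp2c and Cyp3a are the dominant drug-metabolising subfamilies. Of 15 Cyp2c members only Cyp2c44 was above 1 CPM per kilobase, and of 9 Cyp3a members none was. Shared sequence bears on the related genes: over the 50-base windows of their transcripts in a later GENCODE release, in which 81 of the 82 names matched, 48.9% of Cyp4a12a was identical to Cyp4a12b, and 29.8% of Cyp4a10, 38.0% of Cyp2a4, 37.0% of Cyp2a5 and 21.8% of Cyp2d9 occurred in another gene. How the authors counted reads that fit several genes is not given in the sources used here, so the levels of such pairs are uncertain as single genes. For Cyp2d26 the share was 9.49%, for Cyp2e1 3.87%, for Cyp2j11 1.34%, for Cyp2j8 0.752% and for Cyp2f2 0%.

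The comparison of genotypes asks whether loss of A1cf altered the renal transcriptome. No P450 gene changed past the threshold. Of the 82 members, 42 passed the filter on low counts, and 0 of these 42 had an edgeR adjusted p under 0.05, where 0.0473% of all 16910 genes tested did. At an unadjusted p under 0.05, 3 members were higher in KO (Cyp2e1, Cyp4a12a and Cyp4a12b; 7.14% of the tested members, against 5.07% of all genes) and 4 were lower (Cyp2d26, Cyp2f2, Cyp2j8 and Cyp2j11; 9.52%, against 5.28%). In either direction these were 7 members (16.7%, against 10.4% of all genes). No member had groups that did not overlap, where 0.84% of all genes did. Fold changes were positive in 24 of the 42 (57.1%, against 49.2% of all genes), with a median of 0.03 on the log2 scale (-0.003 over all genes). Without regard to sign the median was 0.15, against 0.10 over all genes. The members also varied more within WT, with a median coefficient of variation of 25.2% against 13.99% over all genes tested, from 5.90% for Cyp2j6 to 58.1% for Cyp2d10. DESeq2, applied to the same counts, called Cyp2d26 (adjusted p = 0.00133) and Cyp2e1 (adjusted p = 0.0436), where it called 1.01% of all genes. The unadjusted counts rested on single libraries in part: 5 members were higher without KO 602 (5.87% of all genes), and 2 were lower without WT 590 (5.49% of all genes), without WT 601 (5.06%) or without KO 584 (5.25%). With the run of animal numbers as a covariate, 5 members were higher (Cyp1b1, Cyp2b10, Cyp2e1, Cyp4a12a and Cyp4f18), where 6.53% of all genes were. In that fit 7 were lower (Cyp2c44, Cyp2c69, Cyp2d26, Cyp2f2, Cyp2j8, Cyp2j11 and Cyp4f13), where 6.39% of all genes were, and no member had an edgeR adjusted p under 0.05. With no filter on low counts, 9 of 70 members were higher, against 4.11% of all genes. These 70 included genes near 0, such as Cyp3a11, Cyp3a25 and Cyp2c29, whose reads came mainly from KO 584. Cyp2b10 was among the 9 (edgeR unadjusted p = 0.0394), and its fold change rested on KO 780, as given below.

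**Figure D2:**
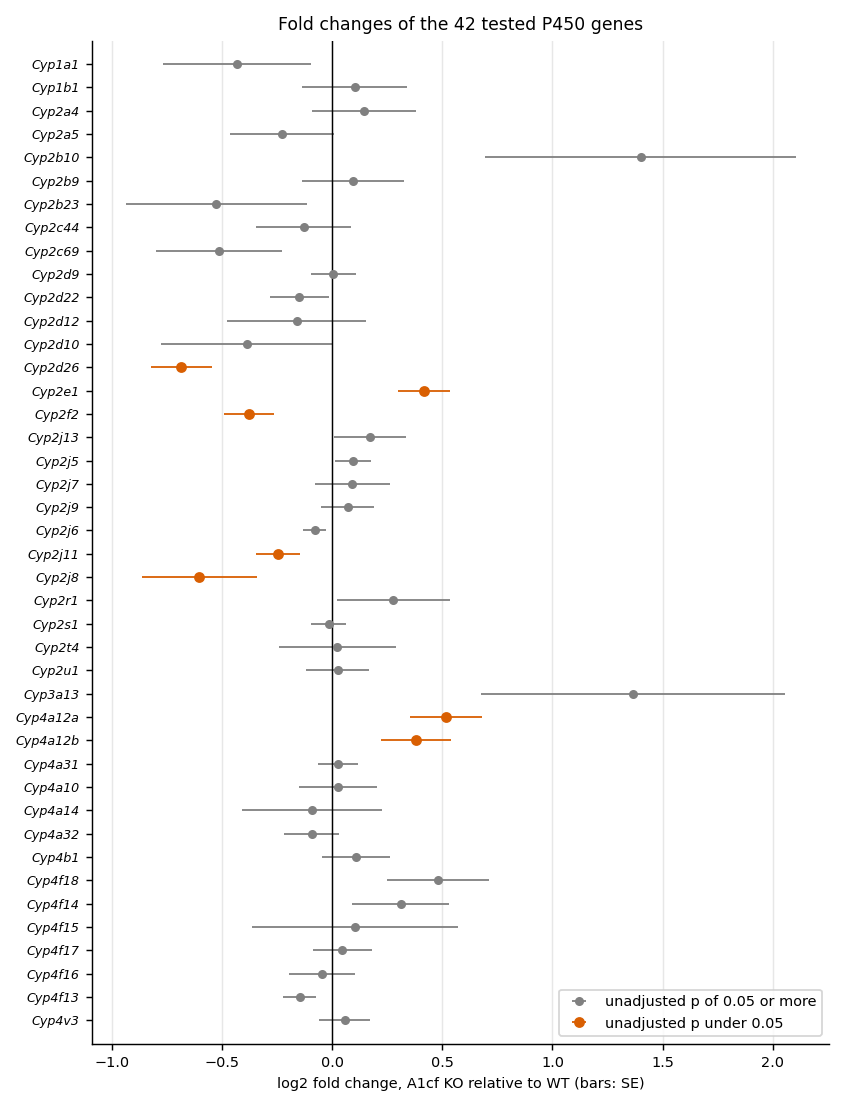
Points are log2 fold changes of KO relative to WT and bars are standard errors, for the 42 tested members ordered by subfamily. The 7 orange points have an unadjusted p under 0.05, and the 2 rightmost points, Cyp2b10 at 1.40 and Cyp3a13 at 1.37, have the widest bars.

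The arachidonate omega-hydroxylases of subfamilies Cyp4a and Cyp4f numbered 17, of which 12 were tested. Cyp4a12a and Cyp4a12b were the 2 members of this group with an unadjusted p under 0.05, and none was lower at that level. Among the 6 tested Cyp4a genes the median log2 fold change was 0.03, and among the 6 tested Cyp4f genes it was 0.07. Cyp4a12a (chr4:115299046-115332815), the main arachidonate omega-hydroxylase of the male mouse kidney, was at a lowest, median and highest of 142, 169 and 267 CPM in WT and 208, 289 and 317 CPM in KO, and other genes are given in the same order. WT 573 and WT 601 were the high WT animals and lay within the KO range, while the other 4 WT animals lay under every KO animal. The log2 fold change was 0.52 ± 0.16 (SE; edgeR unadjusted p = 0.00668, adjusted p = 0.314), and among animals 573 to 602 alone it was 0.23. Its neighbour Cyp4a12b (chr4:115411624-115439034), which shares much of its sequence, was at 37.8, 56.6 and 65.0 CPM in WT and 53.4, 68.9 and 105 CPM in KO. The groups overlapped, with KO 584 far up at 105 CPM and WT 777 lowest. Its log2 fold change was 0.38 ± 0.16 (SE; edgeR unadjusted p = 0.0304, adjusted p = 0.426), and 0.24 without KO 584.

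The 3 most abundant Cyp4a genes had fold changes between -0.09 and 0.03 on the log2 scale, each smaller than its standard error. Cyp4a10 (chr4:115518264-115533649), a PPARA-responsive fatty acid hydroxylase, was at 1840, 2413 and 3512 CPM in WT and 1780, 2271 and 3623 CPM in KO. Its log2 fold change was 0.03 ± 0.18 (SE; edgeR unadjusted p = 0.886), and WT 776 and KO 584 were the high libraries. Cyp4a14 (chr4:115486200-115496142), the member of the subfamily known for the strongest PPARA response, ranged from 711 through a median of 1689 to 3186 CPM in WT and from 953 through 1602 to 2833 CPM in KO. The same libraries, WT 776 and KO 584, were at the top, and WT 573, KO 574 and KO 588 were at the bottom, so that the range within a genotype far exceeded the difference between genotypes. KO relative to WT, the log2 fold change was -0.09 ± 0.32 (SE; edgeR unadjusted p = 0.777), and 0.17 without WT 776. Cyp4a31 (chr4:115563649-115579015) was the steadiest of the 3, at 905, 1151 and 1343 CPM in WT and 1028, 1135 and 1308 CPM in KO, with a log2 fold change of 0.03 ± 0.09 (SE; edgeR unadjusted p = 0.783). Cyp4f13, the leading member of its subfamily at 13.2 CPM per kilobase, averaged 46.1 ± 4.11 CPM in WT against 41.6 ± 3.88 CPM in KO (SD, n = 6), a log2 fold change of -0.15. With the run as a covariate this was -0.22 ± 0.06 (SE; edgeR unadjusted p = 0.00337, adjusted p = 0.182). The other tested Cyp4f genes, some of which inactivate leukotrienes, had fold changes between -0.05 and 0.48. None of these had an unadjusted p under 0.05, although Cyp4f18 did with the covariate (0.66 ± 0.22, SE; edgeR unadjusted p = 0.00832, adjusted p = 0.229).

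Cyp4b1, Cyp2e1 and the remaining genes with a known androgen response were the next group. The 6 androgen-responsive members (Cyp2e1, Cyp4a12a, Cyp4a12b, Cyp2j13, Cyp4b1 and Cyp2d9) were all tested and all had a positive fold change, with a median of 0.28 and a range of 0.01 to 0.52, where 49.2% of all genes were positive. Of these, 3 were higher at an unadjusted p under 0.05, as were 5.07% of all genes. The list was drawn up with these results known and its direction is no independent support. The sign of Cyp2d9 turned, to -0.05, and that of Cyp4b1, to -0.06, among animals 573 to 602 alone, and that of Cyp2d9 also turned when any of 6 libraries was left out. Beside them, 6 of 7 androgen-responsive kidney transcripts outside the families were positive (median 0.19), against the same 49.2% of all genes, and the oxysterol hydroxylase Cyp7b1 was at -0.22. This list too was drawn up with earlier results of these data known, so its direction is no independent support either. Of the 7, 3 were higher at an unadjusted p under 0.05 (5.07% of all genes were), namely the organic anion transporter Slco1a1 (0.71), the polyamine enzyme Odc1 (0.34) and the lysosomal enzyme Gusb (0.20), all with an edgeR adjusted p above the threshold.

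Cyp2e1 (chr7:140763739-140774975), which oxidises ethanol, acetone and small toxicants, was at 1477, 1732 and 2198 CPM in WT and 2019, 2264 and 2916 CPM in KO. Only WT 590 lay within the KO range, and KO 602 and KO 780 were highest. The log2 fold change was 0.42 ± 0.12 (SE; edgeR unadjusted p = 0.00303, adjusted p = 0.268). Among animals 573 to 602 alone it was 0.23. With the run of animal numbers as a covariate it was 0.41. In that fit KO 780, the highest library at 2916 CPM, was the only KO animal among 776 to 780. Cyp4b1 (chr4:115624725-115647723), a fatty acid hydroxylase that also activates furan toxicants, was the most abundant member, at 2597, 2799 and 4812 CPM in WT and 2492, 3376 and 4039 CPM in KO. WT 573 stood alone at the top and the groups overlapped over nearly their whole range. This gave a log2 fold change of 0.11 ± 0.15 (SE; edgeR unadjusted p = 0.497), and 0.28 without WT 573. Cyp2d9 (chr15:82452377-82456827), a testosterone hydroxylase known for male-biased expression, was at 426, 435 and 562 CPM in WT and 394, 473 and 580 CPM in KO, with a log2 fold change of 0.01 ± 0.10 (SE; edgeR unadjusted p = 0.960).

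The arachidonate epoxygenases of subfamilies Cyp2c and Cyp2j numbered 23, of which 9 were tested and 5 had no read. The median log2 fold change was -0.08, with 4 positive and 5 negative. Cyp2j8 and Cyp2j11 were lower at an unadjusted p under 0.05 and none was higher. Cyp2j5 (chr4:96628773-96664154), the main epoxygenase of the proximal tubule, was at 1329, 1487 and 1728 CPM in WT and 1408, 1625 and 1790 CPM in KO. The groups overlapped almost fully, and the log2 fold change was 0.09 ± 0.08 (SE; edgeR unadjusted p = 0.262). Cyp2j11 (chr4:96294508-96348662), a related gene whose function is less well described, was at 138, 174 and 215 CPM in WT and 121, 152 and 165 CPM in KO. WT 573, WT 590 and WT 601 lay above every KO animal, and WT 776, WT 777 and WT 778 lay within the KO range. The log2 fold change was -0.25 ± 0.10 (SE; edgeR unadjusted p = 0.0279, adjusted p = 0.417), and -0.43 among animals 573 to 602 alone. Cyp2j8 (chr4:96444596-96507386) was a gene of low level, at 1.69, 1.86 and 4.27 CPM in WT and 0.823, 1.55 and 2.02 CPM in KO. WT 590 was far above all others and KO 584 was lowest. KO relative to WT, the log2 fold change was -0.60 ± 0.26 (SE; edgeR unadjusted p = 0.0368, adjusted p = 0.447), and -0.33 without WT 590. Cyp2c44 (chr19:44005022-44029247), the kidney's main Cyp2c epoxygenase, was at 15.9, 27.5 and 44.4 CPM in WT and 16.3, 27.0 and 30.8 CPM in KO, a log2 fold change of -0.13. This gene differed between the runs of animal numbers, as described below. With the run as a covariate its fold change between genotypes was -0.37 ± 0.11 (SE; edgeR unadjusted p = 0.00342, adjusted p = 0.182), and among animals 573 to 602 alone it was -0.40 (unadjusted p = 0.00375, with an adjusted p above the threshold).

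The Cyp2a and Cyp2d genes hydroxylate steroids and many foreign compounds. Cyp2d26 (chr15:82790107-82794245), whose own substrates are little known, was at 67.9, 108 and 146 CPM in WT and 59.9, 66.7 and 71.4 CPM in KO. The 6 KO animals lay close together, 5 WT animals lay above all of them, and WT 777 at 67.9 CPM lay among them. The log2 fold change was -0.69 ± 0.14 (SE; edgeR unadjusted p = 0.00021, adjusted p = 0.138), the smallest p of any member. Without WT 777 it was -0.79 with an edgeR adjusted p of 0.0107, and 0.0591% of all genes were called in that fit. Among animals 573 to 602 alone it was -0.77 (adjusted p = 0.197). Over all alternatives its adjusted p lay between 0.00133 and 0.298. Of its neighbours in the same cluster, Cyp2d12 (chr15:82555108-82559413) was at 99.8, 153 and 292 CPM in WT and 90.7, 140 and 300.1 CPM in KO, with wide overlap and a log2 fold change of -0.16 ± 0.32 (SE; edgeR unadjusted p = 0.616). Cyp2d22, the gene with the most sequence in common with Cyp2d26, had a log2 fold change of -0.15.

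Cyp2a4 (chr7:26307169-26315088), a steroid hydroxylase, was at 429, 953 and 1147 CPM in WT and 558, 1027 and 1222 CPM in KO. Its log2 fold change was 0.14 ± 0.24 (SE; edgeR unadjusted p = 0.553), and it turned to -0.09 with the run of animal numbers as a covariate. Its close relative Cyp2a5 (chr7:26835305-26843548), a coumarin hydroxylase, was at 229, 371 and 678 CPM in WT and 232, 380 and 460 CPM in KO, with a log2 fold change of -0.23 ± 0.24 (SE; edgeR unadjusted p = 0.353). For both genes the groups overlapped over most of their range. Cyp2f2 (chr7:27119909-27133660), known for activating naphthalene in the airway, was at 5.86, 6.63 and 7.73 CPM in WT and 4.36, 4.92 and 6.70 CPM in KO. KO 780 alone among the KO animals lay within the WT range. This gave a log2 fold change of -0.38 ± 0.11 (SE; edgeR unadjusted p = 0.00488, adjusted p = 0.297). Of its exon bases 13.5% overlap Gm15883 on the opposite strand, and the counting was not set to use strand, so reads of the pair cannot be told apart there.

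**Figure D3:**
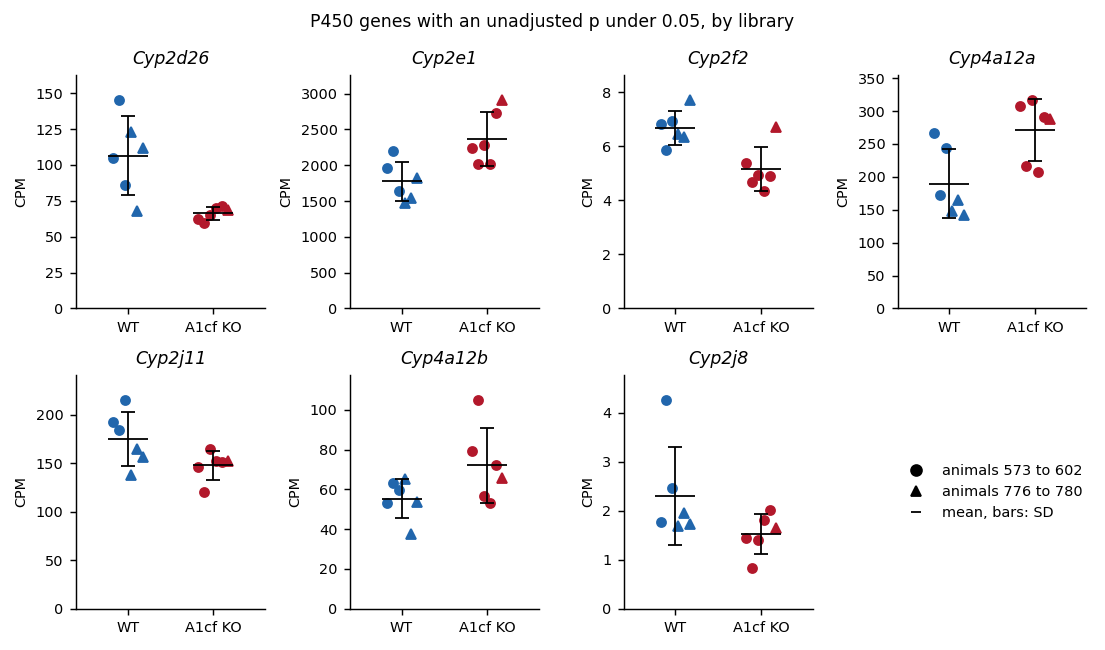
Each panel shows CPM by library for a member with an unadjusted p under 0.05 (circles animals 573 to 602, triangles animals 776 to 780, with mean and SD for 6 animals per genotype). In the Cyp2d26 panel 5 of the WT animals lie above all KO animals, and in the Cyp2j8 panel WT 590 lies apart at 4.27 CPM.

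Of the remaining small subfamilies, Cyp2s1, Cyp4v3, Cyp2u1, Cyp2r1 and Cyp2t4 were the leading members, and none of these 5 had an unadjusted p under 0.05. Cyp2s1, which acts on retinoids and lipid peroxides, averaged 19.8 ± 2.36 CPM in WT against 19.6 ± 1.16 CPM in KO (SD, n = 6; log2 fold change -0.02). Cyp4v3, a fatty acid hydroxylase of which 36.3% of the exon bases overlap Klkb1 on the same strand, was at 7.84 ± 1.08 and 8.14 ± 1.26 CPM (SD, n = 6; log2 fold change 0.06). Cyp2u1, a fatty acid hydroxylase with 10.5% of its exon bases under an opposite transcript, was at 5.11 ± 0.939 and 5.20 ± 0.877 CPM (SD, n = 6; log2 fold change 0.02). Cyp2r1, which hydroxylates vitamin D, was at 0.773 ± 0.264 and 0.938 ± 0.257 CPM (SD, n = 6; log2 fold change 0.28), and Cyp2t4 at 0.471 ± 0.168 and 0.478 ± 0.0944 CPM (SD, n = 6; log2 fold change 0.02). Cyp2ab1, Cyp2g1 and Cyp4x1 had 31, 15 and 5 reads over all libraries and were not tested.

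The Cyp1, Cyp2b and Cyp3a genes, which include the classical targets of xenobiotic receptors, all lay under 1 CPM per kilobase except Cyp1b1 at 5.62 CPM per kilobase. Of the aryl hydrocarbon receptor targets, Cyp1a2 had 3 reads in all, Cyp1a1 averaged 0.728 ± 0.326 CPM in WT against 0.534 ± 0.21 CPM in KO (SD, n = 6; log2 fold change -0.43), and Cyp1b1 was at 27.8 ± 9.78 and 29.8 ± 10.4 CPM (SD, n = 6; log2 fold change 0.10). None of these had an unadjusted p under 0.05. For Cyp1b1, which also differed between the runs of animal numbers, the fold change was 0.44 ± 0.10 with the run as a covariate (SE; edgeR unadjusted p = 0.000764, adjusted p = 0.109) and 0.46 among animals 573 to 602 alone (unadjusted p = 0.00769, adjusted p = 0.531). Of the 14 Cyp2b and Cyp3a genes, 4 were tested and 4 had no read. The 2 highest fold changes of all tested members were in this group, and in each 1 library stood far above the others. Cyp2b10, the standard reporter gene of the receptor CAR, was at 0.547 to 2.31 CPM in WT and 0.352 to 2.67 CPM in 5 KO animals, while KO 780 had 11.98 CPM. Its log2 fold change of 1.40 ± 0.71 (SE; edgeR unadjusted p = 0.0664) was 0.13 without KO 780. With the run as a covariate it was 1.53 ± 0.48 (SE; edgeR unadjusted p = 0.00699, adjusted p = 0.218), and among animals 573 to 602, which do not include KO 780, it was 0.70 (unadjusted p = 0.228). Cyp3a13, a drug-metabolising enzyme of intestine and liver, was at 0.368 to 0.684 CPM in WT and 0.135 to 0.586 CPM in 5 KO animals, while KO 584 had 5.46 CPM. Its log2 fold change of 1.37 ± 0.69 (SE; edgeR unadjusted p = 0.0666) was -0.11 without KO 584.

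KO 584 also carried reads of other P450 genes that the remaining kidneys nearly lacked. Cyp3a11, the main hepatic and intestinal Cyp3a enzyme, had 158 reads there and 40 in the other 11 libraries together, at most 12 in any of them. Cyp3a25 had 38 reads against 4, Cyp2c29 had 24 against 2, Cyp2c65, whose promoter is shown above, had 14 against 8, Cyp2c66 had 8 against 0, and Cyp4f40 had 6 against 2. The same library held transcripts known from the small intestine. The brush border phosphatase Alpi had 234 reads and the sucrase Sis had 90, both with 0 in the other 11 libraries. The fatty acid binding protein Fabp2 had 90 reads against 4 elsewhere, Reg1 had 129 against 1, the lactase Lct had 58 against 34 and the mucin Muc13 had 65 against 45. These were 6 of 8 intestinal transcripts listed, and the other 2, Vil1 (224 CPM) and Apoa4 (5.16 CPM), lay under the highest of the other libraries (275 and 8.48 CPM). Of the 4 liver markers tested, Apoa1 was highest in KO 584, at 6.45 CPM (235 reads) against at most 2.12 CPM elsewhere. Alb (4.22 CPM), Ttr (11.2 CPM) and Serpina1a (15.1 CPM) were not highest there. Over the whole table, 22 genes with at least 20 reads in KO 584 stood there at least 5 times above every other library, of which 4 were P450 genes. WT 777 had 17 such genes, and no other library more than 4, none of them P450 genes. The intestinal list was drawn up after the values were seen, and its part in the Cyp2c and Cyp3a reads of KO 584 was not tested.

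**Figure D4:**
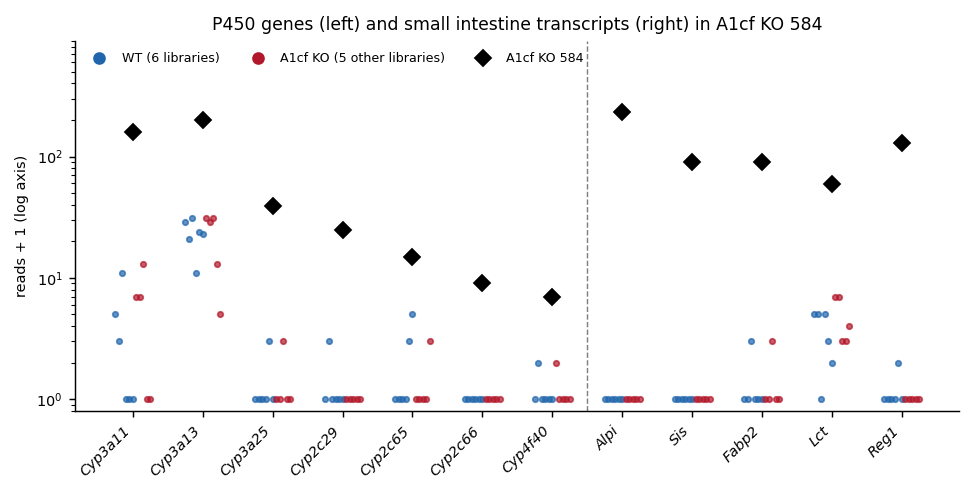
Points are reads plus 1 per library on a log axis for 7 P450 genes (left of the dashed line) and 5 small intestine transcripts (right), with KO 584 as black diamonds. KO 584 lies above the other 11 libraries in every column, with 158 reads for Cyp3a11 and 234 for Alpi.

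The 2 runs of animal numbers are uneven between genotypes, so that they were also compared with each other. With genotype and run in the fit, 4 of 42 members (9.52%, against 2.9% of all genes) differed between the runs at an edgeR adjusted p under 0.05. Of these, 3 were higher in the second run (2.1% of all genes were) and 1 was lower (0.798% of all genes were). Cyp1b1 (chr17:79706953-79715041), an enzyme of oestrogen and retinoid oxidation found in stromal and vascular cells, was at 18.4, 19.4 and 19.1 CPM in WT and 26.5, 34.4, 24.1, 24.7 and 20.5 CPM in KO of the first run. In the second run it was at 37.6, 38.2 and 34.2 CPM in WT and 48.9 CPM in KO 780. Within each run every KO animal lay above every WT animal, the WT animals of the 2 runs were fully separated, and KO 584 was the high animal of the first run. The log2 difference, second run relative to first, was 0.94 ± 0.11 (SE; edgeR adjusted p = 0.000304). Of 7 markers of endothelium, smooth muscle, pericytes and fibroblasts, 4 were also higher in the second run at an edgeR adjusted p under 0.05, by 0.70 for Pecam1, 0.70 for Cdh5, 0.55 for Rgs5 and 0.88 for Pdgfra on the log2 scale. The other 3 were at 0.25 for Acta2 (adjusted p = 0.387), 0.38 for Myh11 (0.195) and -0.46 for Col1a1 (0.243). Their part in the Cyp1b1 difference was not tested.

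Cyp2c44 lay the other way. It was at 36.2, 44.4 and 31.5 CPM in WT and 26.9, 26.2, 30.7, 30.8 and 27.2 CPM in KO of the first run, and at 21.3, 15.9 and 23.5 CPM in WT and 16.3 CPM in KO of the second. In the first run all WT animals lay above all KO animals, and in the second KO 780 lay within the WT range. All 4 animals of the second run lay under all 8 of the first, with a log2 difference of -0.86 ± 0.12 (SE; edgeR adjusted p = 0.0011). Cyp2d22 (chr15:82370528-82380260), a drug-metabolising relative of human CYP2D6, was at 39.9 to 47.3 CPM in WT and 35.4 to 45.1 CPM in KO of the first run, and at 51.4 to 60.8 CPM in WT and 62.5 CPM in KO of the second. The runs did not overlap, and the log2 difference was 0.48 (edgeR adjusted p = 0.00423, and 0.0839 without KO 780). Cyp2b10 had a log2 difference of 2.05 (edgeR adjusted p = 0.0336) that rested on KO 780. Without that library it was 0.99 (adjusted p = 0.467), and 2 members in all were called, against 0.834% of all genes.

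**Figure D5:**
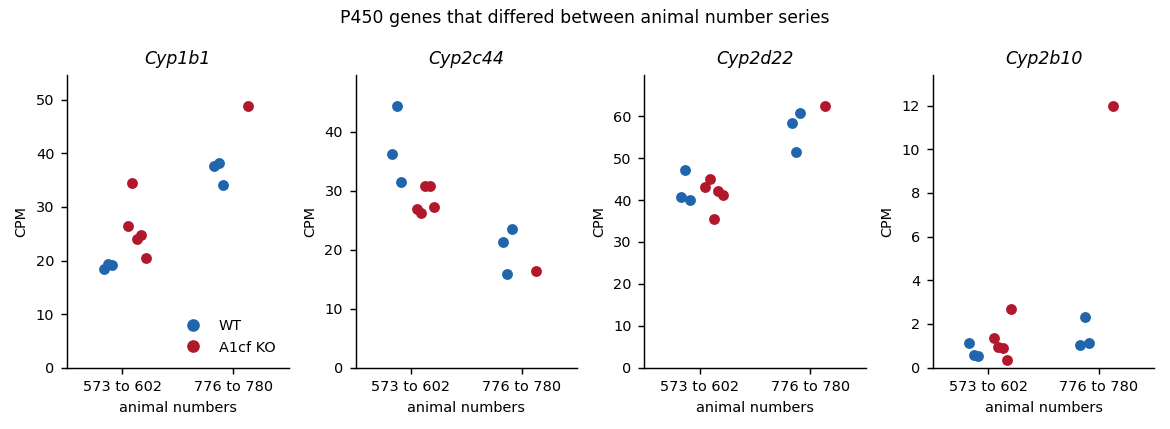
CPM by library for the 4 members that differed between the runs of animal numbers, 573 to 602 and 776 to 780 (blue WT, red KO). Cyp1b1 and Cyp2d22 are higher and Cyp2c44 is lower in the second run, and Cyp2b10 stands at 11.98 CPM in KO 780 only.

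WT 776 and KO 584 stood at the top of their genotypes in 4 tested members (Cyp4a10, Cyp4a14, Cyp4a12b and Cyp4v3). The same 2 libraries were the highest of their genotypes for 4 of 8 PPARA-responsive genes outside the families: Ehhadh, an enzyme of peroxisomal fatty acid oxidation, Acot1, Fabp1 and Vnn1. Ehhadh reached 2701 CPM in WT 776 and 2465 CPM in KO 584. Other tested members went the other way. WT 776 and KO 584 were the lowest of their genotypes for Cyp2j5, Cyp2j6, Cyp2j8, Cyp2j9, Cyp2j11, Cyp2a5, Cyp2d9 and Cyp4f15. Cyp2j5 was at 1329 and 1408 CPM there, and Cyp4f15 at 0.295 and 0.494 CPM. None of the 8 PPARA-responsive genes had an unadjusted p under 0.05 between genotypes. The share of all genes that were highest or lowest in both libraries was not computed. KO 584 is also the library with the small intestine transcripts described above, and their part in these values was not tested.

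Genes that serve the P450 enzymes were measured beside them, and none had an edgeR adjusted p under 0.05. Of 12 genes of redox supply and haem synthesis, all tested, Cpox was higher (log2 fold change 0.19) and Pgrmc1 (-0.18) and Urod (-0.16) were lower at an unadjusted p under 0.05. Over all genes tested, 5.07% were higher and 5.28% were lower at that level, which applies to each list here. Por, the shared electron donor, averaged 306 ± 35.9 CPM in WT against 334 ± 41.0 CPM in KO (SD, n = 6). Of 4 epoxide hydrolases, which break down the epoxides, 3 were tested. Ephx2, the soluble enzyme, was at 708, 732 and 760 CPM in WT and 744, 841 and 1116 CPM in KO, with a log2 fold change of 0.27 ± 0.09 (SE; edgeR unadjusted p = 0.0079, adjusted p = 0.324). Of 12 receptors and regulators, 11 were tested, and the aryl hydrocarbon receptor target Tiparp (0.21) was higher at an unadjusted p under 0.05. Of 21 P450 genes outside families 1 to 4, 13 were tested, 10 of these had a negative fold change (50.8% of all genes did), and the oxysterol hydroxylase Cyp39a1 (-0.24) was lower at an unadjusted p under 0.05.

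By position, 72 of the 82 members lay in 8 clusters in which neighbours were within 1 Mb, and 10 lay alone. Neighbours in a cluster differed widely in level. The chromosome 4 cluster of Cyp4a, Cyp4b and Cyp4x genes held 11 members from 0 to 1428 CPM per kilobase over 541 kb, and the Cyp2d cluster on chromosome 15 held 8 members from 0.0753 to 285 CPM per kilobase over 424 kb. The Cyp2j cluster held 8 members from 0.035 to 665 CPM per kilobase. The Cyp2c cluster of 14 genes on chromosome 19 lay 7.06 to 8.20 Mb from A1cf, on the same chromosome. None of its genes was above 0.332 CPM per kilobase, and Cyp2c69 was the only one tested. Cyp2c69 was at 0.62 CPM as the WT median and 0.431 CPM as the KO median, with a log2 fold change of -0.52 (edgeR unadjusted p = 0.0937). Cyp2c44, alone at 12.1 Mb from A1cf, held most of the Cyp2c signal.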

How the data were processed

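RNA of 12 whole kidneys was sequenced on a HiSeq 2500 after TruSeq library preparation, per the labels. The deposited table holds raw counts per gene, made by the authors with featureCounts 1.5.0-p2 on GENCODE M8, per the file headers. The submitters' processing notes name mm10, STAR and DESeq2, and the aligner version is not given in the sources used here. No strand option is in the header. Of counts from 1 to 10, 76.6% were even, so mates of a read pair appear to have been counted singly, and counting intervals would be too narrow.

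Counts were tested with edgeR 4.0.16 (filterByExpr, TMM scaling, quasi-likelihood F test, R 4.3.3), adjusted by Benjamini-Hochberg over all 16910 genes, with a threshold of 0.05. Alternatives were DESeq2 1.42.0, limma-voom (limma 3.58.1), other scalings and filters, the animal number run as a covariate, animals 573 to 602 alone, and each library left out in turn. Genes were given in full where an unadjusted p was under 0.05 or where they were among the 12 highest per kilobase, and the leading gene of each subfamily was given by level. Members, lists and this rule were chosen with earlier results of these data known. Genes withheld from these lists are not reported here.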

Additional observations from a re-analysis of the deposited data

Results flagged for a closer look

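Within each genotype, the highest or lowest of 6 animals was compared with the nearest of the others for 48 genes, which gave 96 groups. In 20 of these a gap above 0.625 of the group's range set 1 animal apart. The 42 tested members made up 84 of the groups and 10 of the animals set apart. For normal and independent groups the rule sets apart about 1 in 20. CPM values of related genes in the same libraries need not meet this, so no excess is read from the count. The other 10 came from 12 groups of 6 genes that were not tested and were added because their reads in KO 584 had been seen, so that no rate by chance applies to them. KO 584 stood apart for Cyp3a13 (5.46 CPM), Cyp3a11 (4.33 CPM), Cyp3a25 (1.04 CPM), Cyp2c29 (0.658 CPM), Cyp2c65 (0.384 CPM), Cyp2c66 (0.219 CPM) and Cyp4f40 (0.165 CPM), each above the other 5 KO animals. KO 780 stood apart for Cyp2b10 (11.98 CPM), Cyp2d22 (62.5 CPM) and Cyp2d10 (0.813 CPM), where it was highest, and for Cyp2c44 (16.3 CPM), where it was lowest. It is the only KO animal of the second run of numbers. KO 574 was highest for Cyp4a32 (11.2 CPM). Among WT, animal 573 was highest for Cyp4b1 (4812 CPM) and Cyp2b23 (0.582 CPM), animal 590 for Cyp2j8 (4.27 CPM) and animal 777 for Cyp2b10 (2.31 CPM). For 4 other WT groups the animal set apart had only a few reads: Cyp3a11 in WT 601 (0.228 CPM), Cyp3a25 in WT 777 (0.0398 CPM), Cyp2c29 in WT 590 (0.0388 CPM) and Cyp4f40 in WT 590 (0.0194 CPM).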

How the results depend on the processing

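The labels give replicates as animal numbers. No paired analysis was made, because the labels give no litter or other pairing of WT and A1cf -/- animals. The count of P450 genes past the adjusted threshold was 2 by the DESeq2 Wald test and 0 to 1 when single libraries were left out. Members higher in KO at an unadjusted p under 0.05 numbered 9 with no filter on low counts (70 tested, against 4.11% of all genes). These 70 included genes read mainly in KO 584. Members higher in KO numbered 5 with the animal number run as a covariate (6.53%), and 2 to 5 with single libraries left out. Those lower numbered 7 with the covariate (6.39% of all genes) and 2 to 6 with single libraries left out, and those that differed between runs numbered 2 to 6. Over 28 named genes and their alternatives, 575 of 624 values kept their direction and side of the threshold and 39 changed sign, all of them without an adjusted call. With the covariate, the log2 fold change turned to -0.0896 for Cyp2a4, 0.0071 for Cyp2d22, -0.12 for Cyp2u1 and 0.0866 for Cyp4a14. Among animals 573 to 602 it turned to -0.0095 for Cyp2a4, -0.0535 for Cyp2d9, -0.0374 for Cyp2j5, -0.0389 for Cyp2u1, 0.24 for Cyp4a14 and -0.0593 for Cyp4b1. With single libraries left out, some genes changed sign in part of the fits. Over all of these fits, their log2 fold changes ranged from -0.0924 to 0.22 for Cyp1b1, -0.25 to 0.041 for Cyp2c44, -0.44 to 0.0383 for Cyp2d12, -0.0619 to 0.0629 for Cyp2d9, -0.0514 to 0.0275 for Cyp2s1, -0.0735 to 0.19 for Cyp2t4, -0.0347 to 0.13 for Cyp2u1, -0.11 to 1.59 for Cyp3a13, -0.11 to 0.16 for Cyp4a10, -0.32 to 0.17 for Cyp4a14, -0.0291 to 0.0832 for Cyp4a31 and -0.0132 to 0.12 for Cyp4v3. The cause was not tested. The 40 members that were not tested averaged at most 0.429 CPM, where depth limits what can be seen.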
